A study of Camellia sinensis and Camellia sinensis var. assamica with 18 samples.

Results

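The genes of caffeine and theanine synthesis were taken as the loci, CSS009866 among them, whose product description holds the words theobromine synthase, caffeine synthase, methylxanthine or theanine. They also had to reach at least 1 FPKM, a read level scaled for transcript length and library depth, in at least 3 of 18 libraries. Of 41021 loci in the deposited table, 13 matched the words, 7 as theobromine synthase and 6 as caffeine synthase. The words methylxanthine and theanine matched 0 loci, so the theanine side is covered below only by general routes that feed it. The level limit was met by 8 of the 13, among 29019 loci that met it in all. All 13 carry the annotation methyltransferase activity, and their names are best protein matches, often from another Camellia species, so a name is not a measured activity. Reads shared between near-identical copies cannot be told apart, and levels of single loci in this family are uncertain to that extent.

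Caffeine in the tea plant is made by N-methyltransferases of the SABATH family, which move methyl groups from S-adenosylmethionine onto xanthosine and its products. Theobromine synthase makes theobromine from 7-methylxanthine, and caffeine synthase, which in tea can also take the earlier step, makes caffeine from theobromine. Theanine, the amino acid that gives tea its savoury taste, is joined from glutamate and ethylamine by an enzyme related to glutamine synthetase. Both compounds are typical of young tea leaves, although theanine is made mostly in roots and carried to the shoot.

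The RNA came from leaves of tissue culture seedlings 4 to 5 cm high of the cold-tolerant cultivar Shuchazao (SCZ) and the cold-sensitive Yinghong 9 (YH9), an assamica type. Non-acclimated leaves (NA) were taken on day 0 under 25/20 °C (daytime/nighttime). Acclimated leaves (CA) followed on day 14, once the seedlings had spent 7 days under 10/4 °C and 7 days under 4/0 °C. De-acclimated leaves (DA) were taken on day 21, when the warm regime had been restored for 7 days. There were 3 libraries in every one of the 6 groups, and a library held 47291392 to 78305612 counts in total. The plants were propagated from cuttings, and the labels number the libraries of a group without naming a plant or experiment, so p-values measure the spread between these libraries. Temperature and the age of the seedlings cannot be told apart, since CA and DA leaves were taken later than NA leaves. The annotation behind the identifiers comes from the Shuchazao cultivar, SCZ itself.

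The caffeine synthase loci differed most in level among the members. CSS040443, described as caffeine synthase from Camellia sinensis, had the highest mean of the 8. In SCZ it had 89.7, 463 and 245 FPKM at NA, 158, 92.3 and 56.9 FPKM at CA, and 138, 297 and 113 FPKM at DA. In YH9 it had 234, 264 and 358 FPKM at NA, 328, 359.9 and 269 FPKM at CA, and 238, 284 and 334 FPKM at DA. The SCZ libraries at NA spanned the whole range seen in YH9, whereas the 3 SCZ libraries at CA all lay below every YH9 library of any stage.

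CSS040434, described as probable caffeine synthase 2, came next. In SCZ it had 16.7, 177 and 87.0 FPKM at NA, 66.6, 30.6 and 33.2 FPKM at CA, and 56.9, 117 and 25.7 FPKM at DA. YH9 libraries had 102, 136 and 159 FPKM at NA, 189, 226 and 213 FPKM at CA, and 165, 181 and 195 FPKM at DA. Its SCZ libraries lay below its YH9 libraries at CA, and again at DA, while at NA the cultivars overlapped. CSS040443 and CSS040434 together made up between 82.3% and 97.7% of the summed FPKM of the 8 members in a library (median 90.7%).

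The other members described as caffeine synthases were near absent in SCZ. CSS009489, caffeine synthase 4, had 0, 0.102 and 0.146 FPKM in SCZ at NA, 0, 0.0529 and 0.0821 FPKM at CA, and 0 in each of the 3 libraries at DA. In YH9 it had 5.88, 7.36 and 9.55 FPKM at NA, 12.2, 5.90 and 8.67 FPKM at CA, and 7.38, 9.74 and 9.70 FPKM at DA. CSS027586, caffeine synthase 5, is placed by the table on the plus strand of Scaffold 1951 from 452687 to 453976, and was the weakest of the 8. It had at most 0.181 FPKM in any SCZ library and 0 in 4 of the 9, against 0.541 to 2.17 FPKM in YH9 libraries. The name of the genome build is not given in the sources used here, and the other 7 members have no position in the table.

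The members described as theobromine synthases all matched an entry from Camellia irrawadiensis. CSS040436 had 1.38, 13.5 and 7.71 FPKM in SCZ at NA, 6.10, 1.81 and 2.202 FPKM at CA, and 5.50, 9.83 and 1.40 FPKM at DA. YH9 libraries had 18.5, 24.6 and 29.5 FPKM at NA, 35.6, 36.7 and 33.8 FPKM at CA, and 28.9, 28.7 and 37.2 FPKM at DA. Every SCZ library of CSS040436 thus lay below every YH9 library, with 13.5 FPKM as the highest SCZ value and 18.5 FPKM as the lowest YH9 value.

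CSS009866, which met the level limit only through YH9, showed the widest gap among the members described as theobromine synthases. It had 0.299, 0.689 and 0.263 FPKM in SCZ at NA, 0.239, 0.170 and 0.169 FPKM at CA, and 0.390, 0.426 and 0.274 FPKM at DA. The YH9 values were 9.23, 13.0 and 18.4 FPKM at NA, 19.6, 30.8 and 13.0 FPKM at CA, and 11.6, 13.98 and 14.6 FPKM at DA. Unlike CSS009489 and CSS027586 it had counts in all 18 libraries, at least 24 in each, so its SCZ level was low but measured.

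CSS040435 was uneven between libraries of a group. In SCZ it had 0.607, 3.41 and 6.22 FPKM at NA, 4.87, 0.192 and 2.16 FPKM at CA, and 1.20, 0.756 and 1.51 FPKM at DA. In YH9 it had 3.66, 5.40 and 6.14 FPKM at NA, 36.9, 7.33 and 5.77 FPKM at CA, and 31.7, 5.57 and 6.52 FPKM at DA. The first library of YH9_CA and of YH9_DA stood far above the other 7 YH9 libraries, which lay between 3.66 and 7.33 FPKM.

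CSS004818 was the one member whose SCZ libraries all lay above those of YH9 at some stages and all below them at another. In SCZ it had 4.60, 15.0 and 10.5 FPKM at NA, 2.62, 0.684 and 1.08 FPKM at CA, and 9.58, 7.78 and 6.59 FPKM at DA. The YH9 values were 2.52, 4.11 and 2.59 FPKM at NA, 4.78, 4.60 and 3.20 FPKM at CA, and 3.12, 4.07 and 4.06 FPKM at DA. SCZ was above YH9 without overlap at NA and DA, and below it without overlap at CA.

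**Figure D1:**
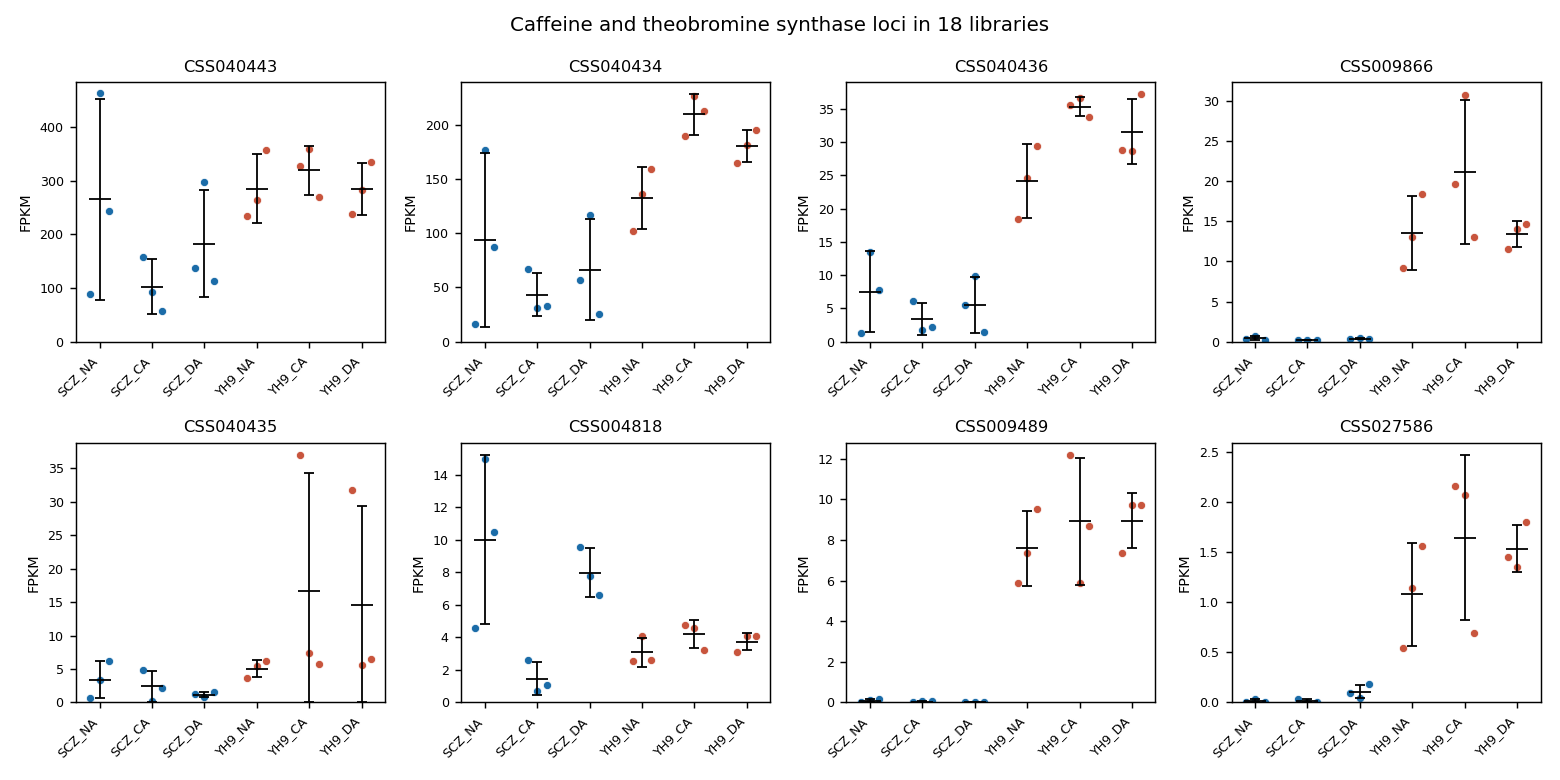
FPKM of the 8 loci (y axes, linear from 0 and scaled per panel) in the 6 groups (x axes), with SCZ in blue and YH9 in red. Points are libraries, dashes are means and bars the SD of 3 libraries, cut at 0. CSS009866, CSS009489 and CSS027586 lay near 0 in all SCZ libraries, and CSS004818 dipped at CA in SCZ, to between 0.684 and 2.62 FPKM.

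Of the 5 loci that matched the words but not the level limit, CSS009867 was just outside, with 2 libraries at 1 FPKM or more and at most 1.46 FPKM, while CSS027586 was just inside, with 7. CSS000107, CSS009487 and CSS009490 had at most 0.554, 0.121 and 0.155 FPKM. These 3 and CSS009867 had 0 counts in all 9 SCZ libraries and some counts in YH9. CSS009867 was detected in 9 of 9 YH9 libraries, with 147 counts summed over YH9_CA. With that sum taken as exact, CSS009867 was at least 53.7-fold lower in SCZ_CA at a floor of 3 counts over the 3 libraries. The fifth, CSS023955, had 3 counts in 1 SCZ_DA library and 0 elsewhere.

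The first question was whether the cultivars differ at each stage. Differences were called at a Benjamini-Hochberg adjusted p under 0.05 and a change of at least 2-fold, from edgeR's quasi-likelihood test on the deposited counts over all 29019 loci. CSS009866, CSS009489 and CSS027586 met the level limit only through YH9, with 0 SCZ libraries at 1 FPKM or more, so that they had to be lower in SCZ and their differences are given as descriptions, without a test. The other 5 members met the limit in each cultivar. At NA, 0 of these 5 were lower in SCZ and 1 was higher, beside 9.29% of all tested loci called lower and 19.2% called in either direction. At CA, 4 were lower and 0 were higher, beside 14.4% called lower and 27.3% called in either direction. At DA, 2 were lower and 1 was higher, beside 12.6% and 24.0%. The libraries of SCZ and YH9 did not overlap for 35.4% of all tested loci at NA, 43.5% at CA and 52.5% at DA. The background shares include loci that met the limit through 1 cultivar only.

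The log2 fold change of CSS009866 was −4.98 ± 0.40 (SE) in SCZ_NA vs. YH9_NA, −6.55 ± 0.43 in SCZ_CA vs. YH9_CA and −5.03 ± 0.40 in SCZ_DA vs. YH9_DA. For CSS009489 the counts summed over 3 libraries were 30 in SCZ_NA against 2574 in YH9_NA, and 18 in SCZ_CA against 2481 in YH9_CA. After scaling the YH9 count was 87.3 times the SCZ count at NA (95% exact binomial interval 61.0 to 130) and 151 times at CA (95.4 to 255). At DA it had 0 counts in SCZ_DA and 2630 in YH9_DA. With the YH9_DA sum taken as exact, this is at least 779-fold lower in SCZ_DA at the floor of 3 counts over the group. CSS027586 had 2 counts in SCZ_NA against 160 in YH9_NA, 2 in SCZ_CA against 201 in YH9_CA, and 15 in SCZ_DA against 194 in YH9_DA. Its YH9 count was 81.4 times the SCZ count at NA (22.2 to 678), 110.1 times at CA (30.1 to 916) and 11.5 times at DA (6.80 to 20.9). These intervals and floors cover counting error only.

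For CSS040436 a lower SCZ level was called at CA (−3.21 ± 0.67 on the log2 scale, adjusted p = 0.00191 in edgeR) and at DA (−2.36 ± 0.64, adjusted p = 0.0121). At NA its difference of −1.75 ± 0.63 was not called (adjusted p = 0.0611 in edgeR, 95% interval −3.09 to −0.41), although the cultivars did not overlap. It was called by DESeq2 and by both limma fits (adjusted p = 0.016 to 0.0398), and in edgeR without SCZ_NA replicate 2 (−2.40, 0.0275), SCZ_CA replicate 1 (0.0484), SCZ_DA replicate 2 (0.0494) or SCZ_DA replicate 3 (0.0287). CSS040434 was lower in SCZ at CA (−2.08 ± 0.57, adjusted p = 0.0113) and not called at NA (interval −1.75 to 0.60) or DA (−2.49 to −0.11), where it did not overlap and was called by DESeq2 (adjusted p = 0.0477) and in edgeR without SCZ_NA replicate 1 (0.0316), SCZ_DA replicate 2 (0.032) or both libraries with high xylem markers described below (0.041). CSS040443 was likewise lower in SCZ at CA (−1.47 ± 0.44, adjusted p = 0.018). It was not called at NA (interval −1.06 to 0.77) or at DA (−1.41 to 0.42). The CA call of CSS040443 was lost without SCZ_CA replicate 2 (adjusted p = 0.0501), SCZ_CA replicate 3 (0.0693) or YH9_CA replicate 2 (0.0532), or without the first library of both YH9_CA and YH9_DA.

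CSS040435 was lower in SCZ at DA (−3.45 ± 1.05, adjusted p = 0.0225 in edgeR). Without YH9_DA replicate 1, the library high for this locus, the difference was −2.21 with an adjusted p of 0.137, and it also missed the threshold when any 1 of the 3 SCZ_DA libraries was left out (0.0542 to 0.078). At CA it differed by −2.62 ± 1.01 and was not called (adjusted p = 0.0587, interval −4.77 to −0.46), but DESeq2, both limma fits and the replicate block called it, as did edgeR without SCZ_NA replicate 1, SCZ_CA replicate 1, YH9_CA replicate 3 or YH9_DA replicate 1 (0.0401 to 0.0483). CSS004818 was higher in SCZ at NA (1.67 ± 0.42, adjusted p = 0.00868) and at DA (1.26 ± 0.41, adjusted p = 0.033), and lower at CA (−1.34 ± 0.42, adjusted p = 0.0222). The NA call held in all 28 alternatives. The CA call was lost without SCZ_CA replicate 2, SCZ_CA replicate 3, YH9_CA replicate 1 or YH9_CA replicate 2 (adjusted p = 0.0609 to 0.0685), without the first library of both YH9_CA and YH9_DA (0.0796), and with the spread of only the groups compared (0.11). The DA call was lost without SCZ_DA replicate 1, SCZ_DA replicate 2 or any 1 of the YH9_DA libraries (0.0543 to 0.118), without the first library of both YH9_CA and YH9_DA (0.134), and with limma on log2(FPKM + 1) (0.0554) and log2(FPKM + 0.1) (0.085).

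**Figure D2:**
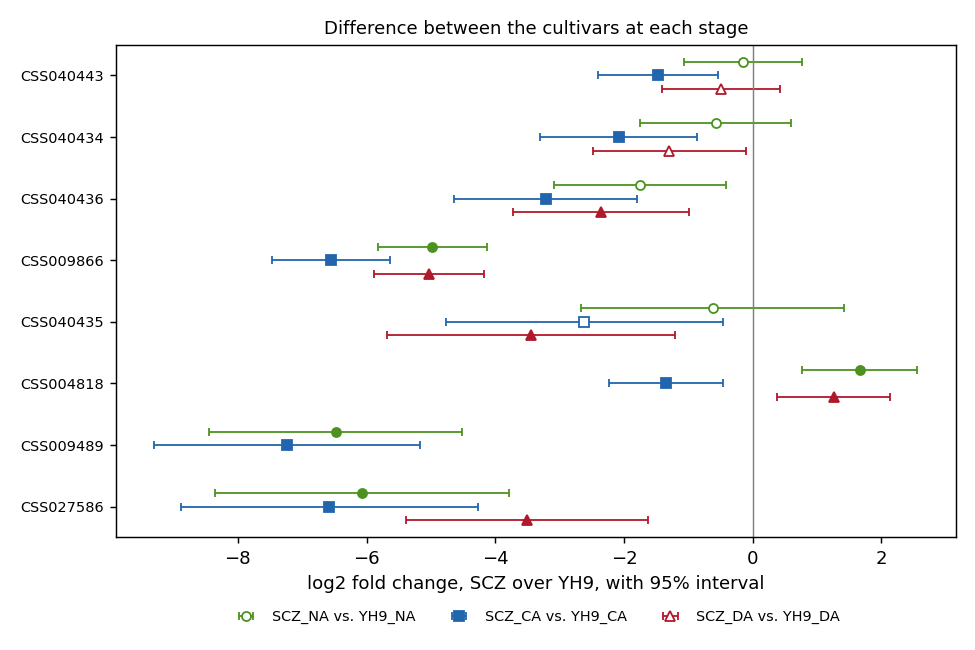
Log2 fold change of SCZ over YH9 (x axis) for the 8 loci (rows) at NA, CA and DA, with 95% intervals from edgeR; filled symbols were called. CSS009866, CSS009489 and CSS027586 met the level limit only through YH9, so their signs and filled symbols are descriptions and no test. At CA the estimates of the other 5 loci all lay below 0, while CSS004818 was above 0 at NA and DA. CSS009489 at DA is left out because all SCZ_DA counts were 0.

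The second question was how the loci responded to acclimation in SCZ. In SCZ_CA vs. SCZ_NA, 2 of 8 members fell and 0 rose, beside 19.1% of all tested loci called lower and 34.1% called in either direction. CSS004818 fell most, by 2.59 ± 0.43 on the log2 scale (adjusted p = 0.000282 in edgeR). Its values were 2.62, 0.684 and 1.08 FPKM in SCZ_CA against 4.60, 15.0 and 10.5 FPKM in SCZ_NA. These did not overlap, as was so for 42.2% of all tested loci. The call held in all 28 alternatives, with log2 fold changes between −3.21 and −2.11. CSS040443 averaged 103 ± 51.5 FPKM in SCZ_CA against 266 ± 188 FPKM in SCZ_NA (SD, n = 3 each), a change of −1.17 ± 0.44 (adjusted p = 0.0405 in edgeR). The groups overlapped, and the call was lost in 10 of 28 alternatives. Without SCZ_NA replicate 2, the library with 463 FPKM, the change was −0.61 (adjusted p = 0.271). Without SCZ_NA replicate 3, SCZ_CA replicate 2, SCZ_CA replicate 3 or YH9_DA replicate 2 the adjusted p lay between 0.0509 and 0.127. CSS009866 had a smaller change (−0.93 ± 0.36, adjusted p = 0.0483) that stayed under 2-fold, and passed 2-fold without SCZ_NA replicate 3 (−1.20, adjusted p = 0.018). CSS040434 changed by −0.86 (interval −2.04 to 0.32) and was called only without SCZ_NA replicate 1 (−1.33, adjusted p = 0.0303) and in the alternative that left out this library with 1 other.

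On the return to normal temperature, 3 of 8 members were called in SCZ_DA vs. SCZ_CA, beside 29.1% of all tested loci. CSS004818 rose by 2.29 ± 0.43 on the log2 scale (adjusted p = 0.00085), with 9.58, 7.78 and 6.59 FPKM in SCZ_DA against 2.62, 0.684 and 1.08 FPKM in SCZ_CA, and the call held in all 28 alternatives. The summed xylem and secondary wall markers, 7 tested of 15 listed loci with 1 or 2 of the 15 at 0 in a group, lay between 1.61 and 15.3 FPKM in SCZ_CA against 21.6 to 197 FPKM in SCZ_NA, with 4 of 7 called lower, and between 15.6 and 27.4 FPKM in SCZ_DA. In YH9_CA they lay between 10.3 and 60.0 FPKM against 25.5 to 240 FPKM in YH9_NA, with 1 of 7 called lower, and between 33.3 and 79.6 FPKM in YH9_DA. Their part in the levels of CSS004818 was not tested. The other 2 calls rest on few counts. CSS009489 had 0 counts in each SCZ_DA library against 0, 6 and 12 in SCZ_CA. With the SCZ_CA sum of 18 taken as exact, this is at least 5.64-fold lower in SCZ_DA at the floor of 3 counts over the group. That sum is itself small, and the call was lost in 8 of 28 alternatives. CSS027586 had 5, 2 and 8 counts in SCZ_DA against 2, 0 and 0 in SCZ_CA, and its call (adjusted p = 0.0497) was lost in 19 of 28. The CSS009489 call was lost without any 1 of the SCZ_DA libraries or without SCZ_CA replicate 2 or 3. Both loci stayed at or below 0.181 FPKM in all SCZ libraries.

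Comparing the end with the start, 0 of 8 members were called in SCZ_DA vs. SCZ_NA by edgeR, beside 3.03% of all tested loci, and 2 had an unadjusted p under 0.05. DESeq2 called 1, CSS009489, as did edgeR without SCZ_NA replicate 1 or SCZ_CA replicate 1, and limma on log2(FPKM + 1) called 0. CSS004818 was at 7.99 ± 1.51 FPKM in SCZ_DA and 10.02 ± 5.20 FPKM in SCZ_NA (SD, n = 3 each), a difference of −0.30 with an interval of −1.17 to 0.57. CSS040443 and CSS040434 had intervals of −1.43 to 0.40 and −1.62 to 0.73.

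In YH9 edgeR called none of these loci between stages. In YH9_CA vs. YH9_NA edgeR called 0 of 8 members, beside 25.8% of all tested loci, with 0 at an unadjusted p under 0.05, and DESeq2 and limma also called 0. In YH9_DA vs. YH9_CA it called 0, beside 23.5% of all loci, with 1 at an unadjusted p under 0.05. In YH9_DA vs. YH9_NA it called 0, beside 0.376% of all loci, with 0 at an unadjusted p under 0.05, and DESeq2 and limma called 0 in both. The estimates for YH9_CA vs. YH9_NA lay between 0.15 and 1.71 for the 8 members, beside a median of −0.01 over all tested loci. Members varied together between libraries, and their common sign was not tested. The highest estimate, that of CSS040435, rests on 1 YH9_CA library at 36.9 FPKM, beside 7.33 and 5.77 FPKM in the others. CSS040434 averaged 209.6 ± 18.7 FPKM in YH9_CA against 132 ± 28.7 FPKM in YH9_NA (SD, n = 3 each), without overlap, and its interval was −0.53 to 1.82. CSS040436 likewise did not overlap, with an interval of −0.78 to 1.84. In this comparison 2 of 8 members did not overlap, beside 54.2% of all tested loci. CSS004818 had an interval of −0.45 to 1.29. CSS009866 was at 11.6 to 14.6 FPKM in YH9_DA against 13.0 to 30.8 FPKM in YH9_CA, a difference of −0.81 (interval −1.53 to −0.10, adjusted p = 0.0798), which was called without YH9_CA replicate 3 (−1.07, adjusted p = 0.0314).

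**Figure D3:**
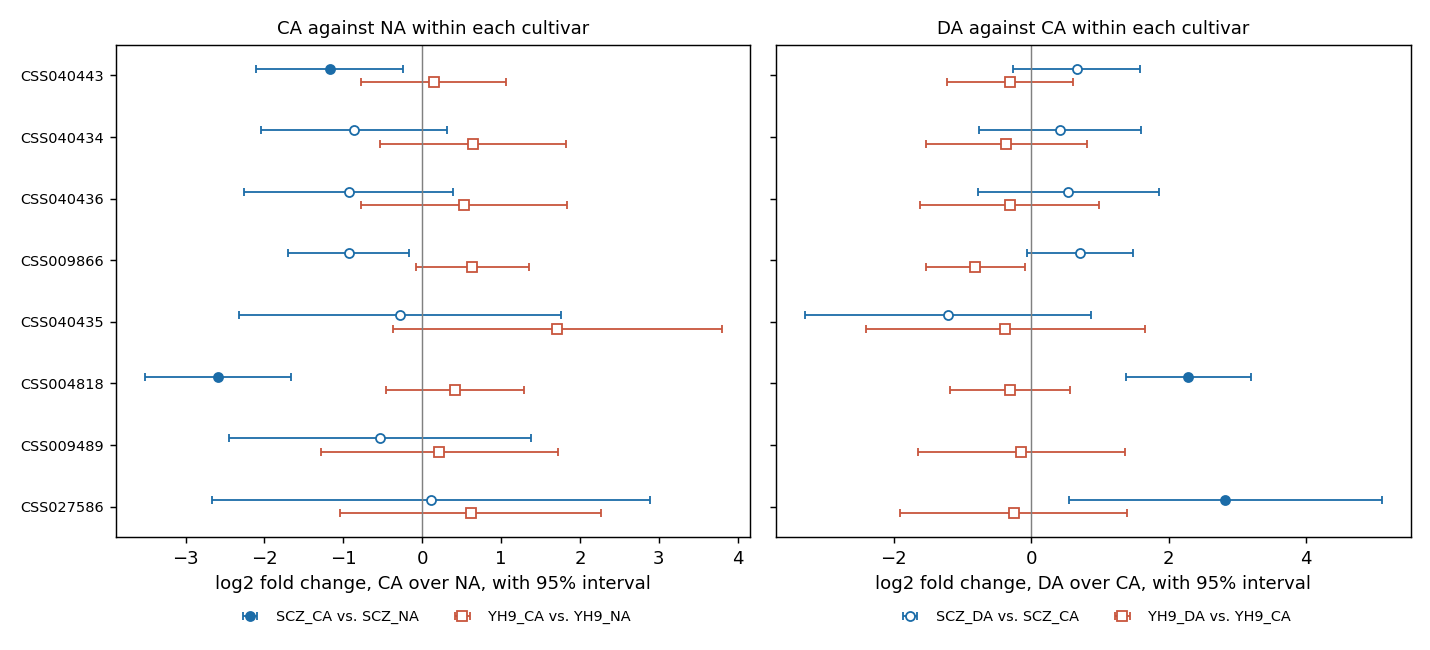
Log2 fold change of CA over NA (left) and of DA over CA (right) for the 8 loci (rows), with SCZ in blue, YH9 in red and 95% intervals from edgeR; filled symbols were called. CSS004818 fell at CA and rose at DA in SCZ, and its YH9 estimates of 0.42 and −0.31 were not called. CSS009489 in SCZ_DA vs. SCZ_CA is left out because all SCZ_DA counts were 0.

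A further test took the response in SCZ minus the response in YH9, an interaction term of the same fit. For CA vs. NA, 1 of 8 members was called, beside 2.52% of all tested loci. This was CSS004818, whose response in SCZ was lower than in YH9 by 3.01 on the log2 scale (−3.01 ± 0.59, adjusted p = 0.0173 in edgeR). For DA vs. CA, 1 of 8 was called, beside 1.72%, again CSS004818 (2.60 ± 0.59, adjusted p = 0.039). The first held whichever single library was left out and missed the threshold with only the 4 groups compared in the fit (0.067), or without both YH9_CA and YH9_DA replicates 1 (0.0643). The second was lost in 14 of 28 alternatives, 11 of which left out 1 library: SCZ_NA replicate 3, SCZ_CA replicate 3 or any of the SCZ_DA, YH9_CA and YH9_DA libraries (adjusted p = 0.0505 to 0.106). The estimates of the 8 members for CA vs. NA lay between −3.01 and −0.51, beside a median of −0.02 over all tested loci, and their common sign was not tested. That of CSS027586, −0.51, rests on 2 counts in SCZ_CA and 2 in SCZ_NA. For CSS009866 the CA vs. NA estimate was −1.57 ± 0.49 (adjusted p = 0.1, interval −2.62 to −0.52), which only DESeq2 called (adjusted p = 0.0475). For DA vs. CA DESeq2 also called CSS009489 (adjusted p = 0.0257).

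The measured levels of the 2 abundant caffeine synthase loci and CSS040436 varied together between libraries. Reads shared between near-identical copies cannot be told apart, and their part in these relations was not tested. The spread between the 3 SCZ_NA libraries was 70.6% of the mean for CSS040443 and 85.9% for CSS040434, against 22.7% and 21.7% in YH9_NA. Among loci with a mean of at least 10 FPKM, the median spread was 23.7% in SCZ_NA and 15.7% in YH9_NA. The spread of these 2 loci was wider than that of 94.3% and 96.8% of such loci in SCZ_NA, and of 69.8% and 67.5% in YH9_NA. Over the 9 SCZ libraries, log2(FPKM + 1) of CSS040434 and CSS040436 correlated with r = 0.98 (exact permutation p = 2.76e-06, adjusted p = 5.51e-05) and rho = 1 (exact permutation p = 5.51e-06, adjusted p = 0.00011). The r was 0.99 without the 2 libraries farthest from the median and 0.98 for deviations from stage means. Over the 9 YH9 libraries r was 0.95 (exact permutation p = 0.000358, adjusted p = 0.00358) and rho 0.85 (exact permutation p = 0.00607, adjusted p = 0.0304), with r = 0.78 without the 2 farthest libraries and 0.88 within stages.

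CSS040443 followed CSS040434 in SCZ with r = 0.90 (exact permutation p = 0.00109, adjusted p = 0.00543) and rho = 0.88 (exact permutation p = 0.00308, adjusted p = 0.0205), and with r = 0.94 both without the 2 farthest libraries and within stages. It followed CSS040436 in SCZ with r = 0.90 (exact permutation p = 0.000783, adjusted p = 0.00522) and rho = 0.88 (adjusted p = 0.0205), with r = 0.92 within stages and without the 2 farthest libraries. In YH9 the same 2 relations had r = 0.60 and 0.71 and did not pass (adjusted permutation p = 0.177 and 0.0839, exact). In all 20 relations were tested, among 5 members in 2 cultivars, and adjusted p-values cover all 20. Libraries were permuted across stages, so shared stage changes enter these p-values, and the r within stages has no p-value. The relations of CSS040435 and CSS004818 with the other members all had an adjusted exact permutation p above 0.05. The FPKM of CSS040434 was 10.4 to 18.4 times that of CSS040436 in SCZ libraries and 5.25 to 6.31 times in YH9 libraries, ranges that do not overlap.

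**Figure D4:**
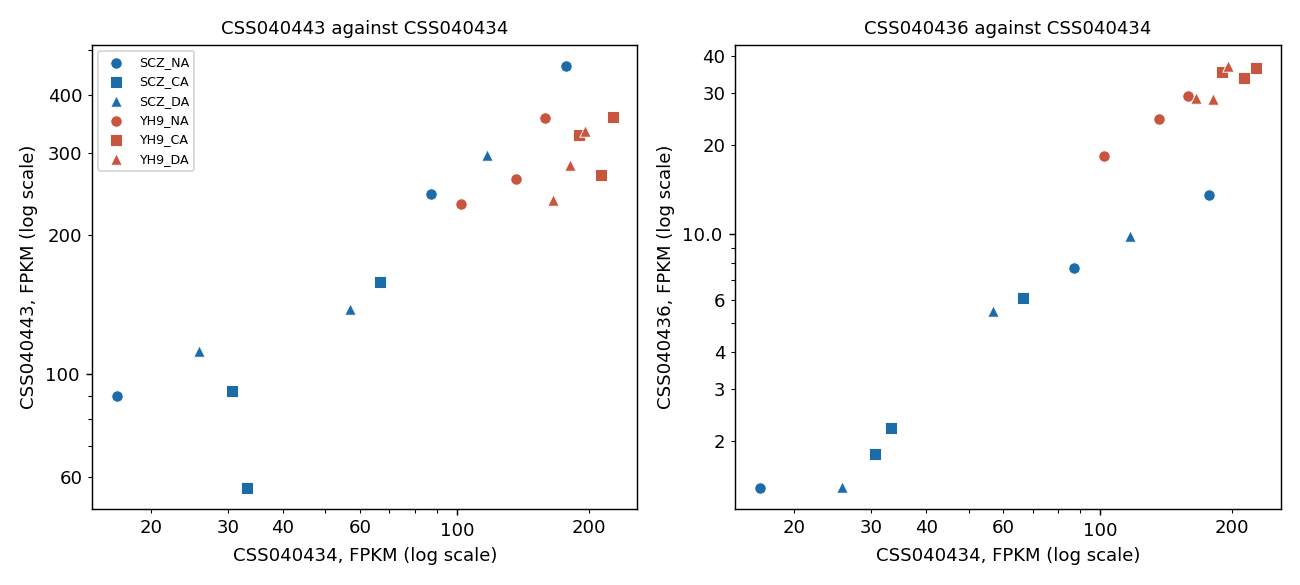
FPKM of CSS040443 (left) and CSS040436 (right) against that of CSS040434, on log scales, with 1 point per library, SCZ in blue and YH9 in red, and the stage given by the symbol. The SCZ points spread from 16.7 to 177 FPKM of CSS040434. In SCZ, CSS040436 had the same order of libraries as CSS040434 (rho = 1), and CSS040443 a similar but not the same order (rho = 0.88). In the right panel the YH9 points lie above the SCZ points at a like CSS040434 level.

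The SCZ_NA library lowest for these loci also stood apart in its xylem markers. SCZ_NA replicate 1, with 113 summed FPKM over the 8 members against 673 and 356 in the other SCZ_NA libraries, had a summed xylem and secondary wall marker level of 197 FPKM over the 7 of 15 listed loci that were tested, against 21.6 and 23.8. YH9_NA replicate 2 had a still higher xylem sum, 240 FPKM against 29.8 and 25.5, and its 456 summed member FPKM lay between the 376 and 584 of the other YH9_NA libraries. In SCZ_CA, SCZ_DA and YH9_CA the library with the lowest member sum (95.8, 148 and 547 FPKM) had the lowest xylem sum (1.61, 15.6 and 10.3 FPKM). In YH9_DA the library with the lowest member sum (487 FPKM) had the highest xylem sum (79.6 FPKM). Photosynthesis markers, 32 of 34 listed loci, of which 0 to 2 were at 0 in a group, summed to between 2638 and 9796 FPKM in SCZ_CA against 32641 to 42329 FPKM in SCZ_NA, and to between 7467 and 8907 FPKM in YH9_CA against 29232.5 to 39459 FPKM in YH9_NA. Markers of dividing cells, of which 15 of 26 listed loci were tested, summed to between 304 and 538 FPKM over all libraries. The part of these markers in the member levels was not tested. Of the 5 loci that mark roots, 1 passed the level limit and stayed between 0 and 7.27 FPKM. Without SCZ_NA replicate 1 and YH9_NA replicate 2 together, an alternative chosen after seeing the data, 3 of 8 members were called in SCZ_CA vs. SCZ_NA. In SCZ_CA vs. YH9_CA 7 of 8 were called, among them CSS009866, CSS009489 and CSS027586. These met the level limit only through YH9, so they had to be lower in SCZ and are no test. With all libraries in the fit, 34.1% and 27.3% of all tested loci were called in these comparisons. Fewer cells of a type and less RNA per cell cannot be told apart in whole leaves.

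Over all 18 libraries, the loci most like each abundant member were sought among 8598 loci with a mean of at least 10 FPKM and a product description, by Pearson's r of log2(FPKM + 1). The values are descriptions, since the libraries share cultivar and stage. For CSS040434 the nearest was CSS040436 (r = 0.97), followed by CSS008780, an IQ-DOMAIN protein (0.93), and CSS023847, described as isochorismate synthase 2 (0.92), which takes part in salicylic acid synthesis. For CSS040436 the nearest after CSS040434 were CSS023847 (0.96) and CSS038043, a fructokinase (0.94). CSS023847 had 2.65 to 15.6 FPKM in SCZ libraries and 16.6 to 28.4 FPKM in YH9 libraries. CSS038043 had 0.785 to 5.20 FPKM in SCZ libraries and 14.1 to 29.9 FPKM in YH9 libraries. Both thus lacked overlap between the cultivars, as did CSS040436. The share of all loci with such a separation over the 18 libraries is not given here. For CSS040443 the nearest were CSS007167, a deSI-like protein (0.93), CSS044634, described as PMR5 (0.92), and CSS040434 (0.91).

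The loci that supply purine rings and methyl groups to caffeine synthesis were counted in lists taken by product description. Beside these counts, 15.0% of all tested loci rose and 19.1% fell in SCZ_CA vs. SCZ_NA, and 11.7% rose and 14.2% fell in YH9_CA vs. YH9_NA. In SCZ_DA vs. SCZ_CA 15.6% rose and 13.5% fell, and in YH9_DA vs. YH9_CA 13.1% rose and 10.4% fell. Xanthosine is made from AMP through IMP, and IMP dehydrogenase is the step that commits the purine to xanthosine monophosphate. CSS001455, the IMP dehydrogenase described from Camellia sinensis, had 82.8, 166 and 75.9 FPKM in SCZ_CA against 104, 81.2 and 84.0 FPKM in SCZ_NA. In YH9_CA it had 84.5, 85.2 and 77.6 FPKM, against 167, 118 and 115 FPKM in YH9_NA. Neither difference was called (intervals −0.38 to 1.10 in SCZ and −1.48 to −0.0026 in YH9). Of 5 tested loci of this route, 2 rose and 0 fell in SCZ_CA, and 1 rose and 1 fell in YH9_CA, beside 34.1% and 25.8% of all loci called in either direction.

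The 2 that rose in SCZ_CA were an adenosine kinase, which returns adenosine to AMP, and an AMP deaminase, which turns AMP into IMP. CSS002436, the adenosine kinase, had 127, 371 and 225 FPKM in SCZ_CA against 43.0, 86.8 and 52.2 FPKM in SCZ_NA (2.17 ± 0.45, adjusted p = 0.00151 in edgeR). In YH9 its change of 0.90 was not called (adjusted p = 0.128), and the difference between the cultivars' responses was not called either (adjusted p = 0.284). The AMP deaminase locus, which joins CSS020120 and CSS020121, averaged 10.6 ± 2.40 FPKM in SCZ_CA against 1.71 ± 0.713 FPKM in SCZ_NA (2.83, adjusted p = 2.73e-05). It also rose in YH9_CA, to 3.69 ± 0.903 FPKM against 0.997 ± 0.533 FPKM in YH9_NA (1.88, adjusted p = 0.000773). CSS015757, the most abundant locus of purine ring synthesis, averaged 48.3 ± 9.70 FPKM in SCZ_CA and 43.8 ± 1.31 FPKM in SCZ_NA, and 16.5 ± 1.69 FPKM in YH9_CA and 27.4 ± 3.53 FPKM in YH9_NA, and was not called in either cultivar. Of the 14 loci of this route, 1 rose and 1 fell in SCZ_CA, both amidophosphoribosyltransferases, which catalyze the first step, a smaller share than the 34.1% of all loci called. CSS053208 rose (1.53) and CSS039446 fell (−2.17), and CSS039446 also fell in YH9_CA (−1.23, adjusted p = 0.0467), a call lost in 16 of 28 alternatives, without any 1 of the YH9 libraries among them.

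The S-adenosylmethionine cycle makes and renews the methyl donor of these enzymes. Of its 8 tested loci 1 rose in SCZ_CA and 0 were called in YH9_CA, while 4 fell in SCZ_DA vs. SCZ_CA, beside 13.5% of all loci, and 2 in YH9_DA vs. YH9_CA, beside 10.4%. The median log2 fold change over the 8 was 0.30 in SCZ_CA vs. SCZ_NA and 0.41 in YH9_CA vs. YH9_NA, against −0.06 and −0.01 over all tested loci. The locus that rose was CSS010144, an S-adenosylmethionine synthase, with 112, 156 and 55.1 FPKM in SCZ_CA against 25.9, 21.4 and 20.8 FPKM in SCZ_NA (2.32 ± 0.36, adjusted p = 0.00015). Its most abundant relative, CSS024243, had 79.9 ± 40.3 FPKM in SCZ_CA and 105 ± 37.0 FPKM in SCZ_NA (SD, n = 3 each) and was not called. CSS039124, a methyltransferase that renews methionine, averaged 88.6 ± 5.52 FPKM in SCZ_CA and 57.2 ± 14.8 FPKM in SCZ_NA, a difference under 2-fold (0.71, adjusted p = 0.0345). Among the 4 loci of purine breakdown, both allantoate deiminases rose in SCZ_CA and in YH9_CA. CSS012282, 1 of the 2, averaged 46.1 ± 28.6 FPKM in SCZ_CA against 12.4 ± 4.47 FPKM in SCZ_NA, and 61.6 ± 4.99 FPKM in YH9_CA against 10.5 ± 2.94 FPKM in YH9_NA. The other, CSS023474, rose by 2.07 and 2.63 on the log2 scale (adjusted p = 0.0002 in SCZ_CA and 6.2e-05 in YH9_CA). CSS012527, a uricase, which breaks down urate, was not called in SCZ (interval −1.08 to 0.11) or YH9 (−1.12 to 0.06). The 1 tested locus among other SABATH methyltransferases, CSS028735, described as jasmonate O-methyltransferase, fell in SCZ_CA (−5.05, adjusted p = 0.00631) at levels of at most 1.58 FPKM on average.

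On the theanine side, loci of glutamine and glutamate metabolism were counted in 1 list, glutamate dehydrogenases among them. Those called in CA vs. NA all fell. Of 14 tested loci of this list, 6 fell, 0 rose and 8 were not called in SCZ_CA, beside 19.1% of all loci that fell, and 8 fell, 0 rose and 6 were not called in YH9_CA, beside 14.2%. In SCZ_DA vs. SCZ_CA 5 rose and 0 fell, beside 15.6% of all loci that rose, and in YH9_DA vs. YH9_CA 8 rose and 0 fell, beside 13.1%. The list's median log2 fold change was −0.82 in SCZ_CA vs. SCZ_NA and −1.31 in YH9_CA vs. YH9_NA, against −0.06 and −0.01 over all tested loci. CSS018046, a glutamine synthetase described from Camellia sinensis, had 170.4, 86.1 and 133 FPKM in SCZ_CA against 488, 309 and 286 FPKM in SCZ_NA (−1.41 ± 0.34, adjusted p = 0.00388), a change that stayed under 2-fold without SCZ_NA replicate 1 (−0.90). It had 206, 153 and 159.5 FPKM in YH9_CA against 545, 479 and 406 FPKM in YH9_NA (−1.51 ± 0.34, adjusted p = 0.00337). CSS030824, a chloroplast glutamine synthetase, averaged 64.5 ± 26.4 FPKM in SCZ_CA against 168 ± 1.07 FPKM in SCZ_NA, and 110 ± 23.7 FPKM in YH9_CA against 332 ± 35.8 FPKM in YH9_NA, and its SCZ change stayed under 2-fold without SCZ_CA replicate 2 (−0.93). Both rose in both cultivars in DA vs. CA, by 1.32 to 1.89 on the log2 scale. CSS041569, a glutamate dehydrogenase, which joins ammonium to 2-oxoglutarate or releases it from glutamate, averaged 7.52 ± 2.34 FPKM in SCZ_CA against 26.9 ± 1.47 FPKM in SCZ_NA, and 7.84 ± 1.62 FPKM in YH9_CA against 32.3 ± 3.86 FPKM in YH9_NA. CSS004444, a second glutamate dehydrogenase, fell by 3.23 and 3.24 on the log2 scale, in SCZ_CA and YH9_CA, to at most 1.15 FPKM in any CA library, the YH9 call lost without YH9_NA replicate 3, YH9_CA replicate 2 or YH9_CA replicate 3 (adjusted p = 0.0503 to 0.0545). The difference between the cultivars in CA vs. NA was not called for CSS018046 (interval −0.89 to 1.10) or CSS030824 (−0.50 to 1.30). The photosynthesis sums given above were also lower at CA than at NA, and their part here was not tested.

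The ethylamine of theanine is made from alanine, by a tea enzyme that belongs to the serine decarboxylase family. CSS000606, described as serine decarboxylase-like, had 40.9, 23.1 and 36.8 FPKM in SCZ_CA against 1.19, 2.32 and 7.70 FPKM in SCZ_NA (3.39 ± 0.63, adjusted p = 0.000613). In YH9_CA it had 51.7, 53.5 and 55.7 FPKM, against 5.24, 5.17 and 4.08 FPKM in YH9_NA (3.43 ± 0.63, adjusted p = 0.000818). It fell again in SCZ_DA vs. SCZ_CA (−2.13) and in YH9_DA vs. YH9_CA (−3.03). CSS047084, an alanine aminotransferase, which makes alanine, also rose in SCZ_CA (1.89, adjusted p = 0.000824) and YH9_CA (1.06, adjusted p = 0.0319), the YH9 call lost without any 1 of the YH9_NA libraries or without YH9_CA replicate 2 or 3. These were the 2 of 7 loci of ethylamine and alanine supply that rose in each cultivar, and 0 fell, beside 15.0% and 11.7% of all loci that rose and 34.1% and 25.8% called in either direction. The description does not say which amino acid CSS000606 acts on.

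Loci that may break down or carry these amino acids moved in both directions. Of 8 loci of theanine and glutamine breakdown, 1 rose and 3 fell in SCZ_CA, and 1 rose and 1 fell in YH9_CA, the last near the 25.8% of all loci called there. The locus that rose in each cultivar was CSS008524, described as a pyridoxal 5'-phosphate synthase subunit. It averaged 1.46 FPKM in SCZ_CA against 0.207 FPKM in SCZ_NA, and 0.597 FPKM in YH9_CA against 0 FPKM in YH9_NA. CSS051194, a primary amine oxidase, the enzyme class that removes ethylamine, had 305, 297 and 158 FPKM in SCZ_CA against 679, 583 and 490.1 FPKM in SCZ_NA (−1.13, adjusted p = 0.00788), a change that stayed under 2-fold without SCZ_NA replicate 1 (−0.82) or SCZ_CA replicate 3 (−0.96). It had 958, 654 and 574 FPKM in YH9_CA and 645, 553 and 1019.7 FPKM in YH9_NA, and was not called there. A second primary amine oxidase, CSS045741, fell in both cultivars, with 6.75 ± 3.03 FPKM in SCZ_CA against 42.9 ± 11.2 FPKM in SCZ_NA and 15.5 ± 3.58 FPKM in YH9_CA against 60.0 ± 13.8 FPKM in YH9_NA. CSS049664, a gamma-glutamyl peptidase, fell in SCZ_CA (−4.44, adjusted p = 0.0021) to at most 0.181 FPKM. Of 26 amino acid permeases, 2 rose and 12 fell in SCZ_CA, beside 15.0% and 19.1% of all loci, and 3 rose and 7 fell in YH9_CA, beside 11.7% and 14.2%. CSS051700, a lysine histidine transporter, had 16.9, 38.8 and 15.0 FPKM in YH9_CA against 0.204, 0.0492 and 0.557 FPKM in YH9_NA (6.43 ± 0.90, adjusted p = 0.000111). In SCZ_CA it had 2.73, 1.39 and 0.974 FPKM, against 0.267, 2.41 and 3.57 FPKM in SCZ_NA, which was not called (interval −1.59 to 1.44). CSS019053, a lysine histidine transporter-like locus, fell in SCZ_CA (−4.62, adjusted p = 0.00148) and YH9_CA (−2.47, adjusted p = 0.0393), the YH9 call lost without any 1 of the YH9_NA libraries or without YH9_CA replicate 1 or 3 (0.055 to 0.129). The 2 most abundant permeases, CSS017462 and CSS006116, were not called in CA vs. NA in either cultivar, and the first had a difference under 2-fold in SCZ (−0.78, adjusted p = 0.044). With the spread of only the groups compared, the SCZ_CA vs. SCZ_NA calls of CSS039446, CSS018046, CSS030824, CSS051194 and CSS004444 (adjusted p = 0.0573 to 0.128) and the SCZ_DA vs. SCZ_CA call of CSS000606 (0.0596) were lost.

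**Figure D5:**
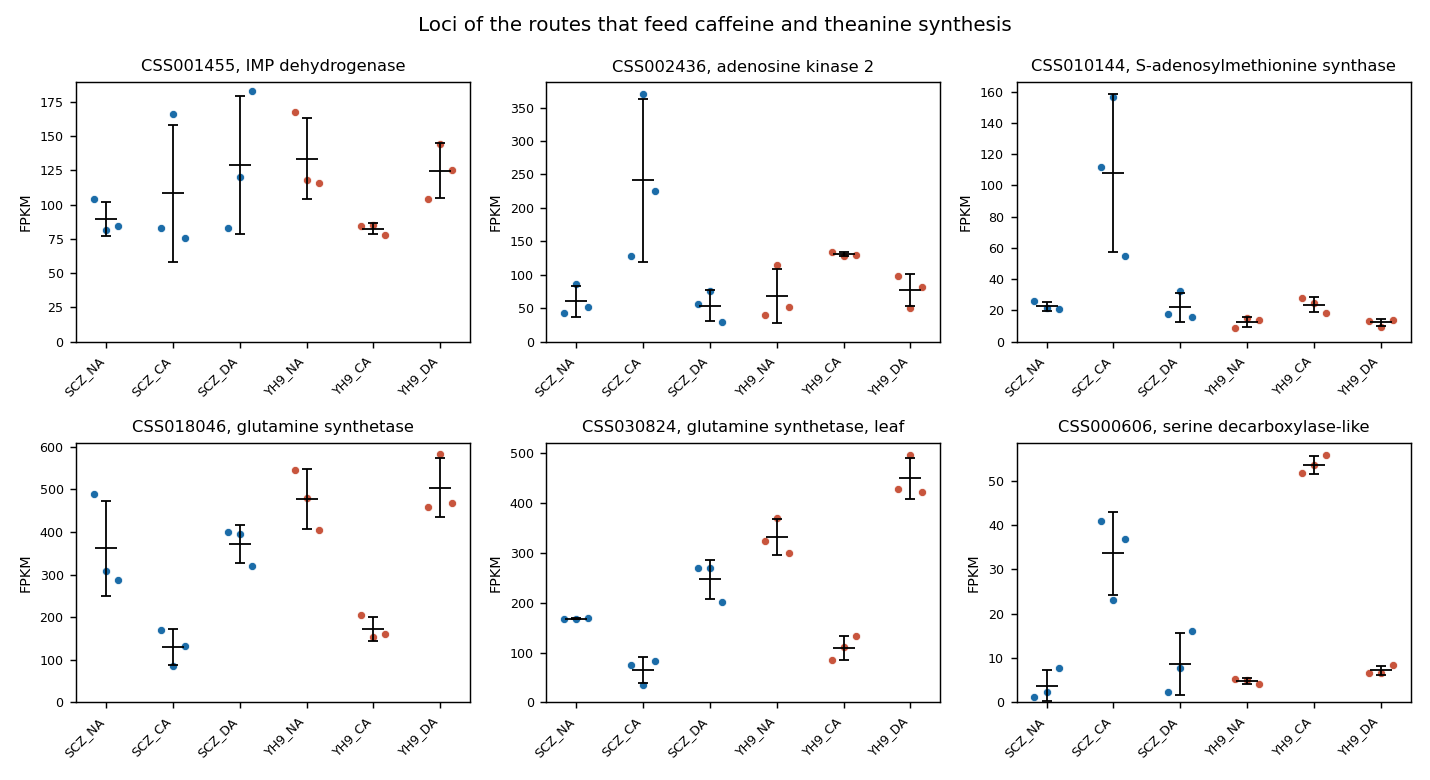
FPKM of 6 loci of the routes that feed caffeine synthesis (top) and theanine synthesis (bottom) in the 6 groups, with points for libraries, dashes for means and bars for the SD of 3 libraries. CSS018046 and CSS030824 were lower at CA than at NA and DA in both cultivars, CSS000606 was higher, and CSS001455 showed no called change at CA.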

How the data were processed

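The deposited table holds FPKM values and whole-number estimated counts for each locus in each of 18 libraries. The FPKM values were computed by the authors. The submitters' processing notes name cutadapt 1.9, HISAT2 2.2.1 and StringTie 2.1.6, list UMI-tools, DESeq2 and edgeR without a role, and give a genome build of another species, so the build is taken as not given in the sources used here. The authors deposited the counts as well, without naming the program behind them. Their total per library was 47291392 to 78305612. All 36 value columns were mapped to samples by name and 0 were left out. The libraries were grouped by the labels.

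Loci with at least 1 FPKM in at least 3 libraries were tested with edgeR 4.0.16 (R 4.3.3). The fit used TMM factors (0.795 to 1.16) and 1 mean per group over all 18 libraries, without a replicate block. P-values were Benjamini-Hochberg adjusted over all tested loci. The SE is the log2 fold change divided by the square root of F. The script was tested on simulated data. Correlations used exact permutation over 9 libraries, two-sided. Levels of different loci were compared in FPKM only. The count and the FPKM of each member kept 1 ratio across libraries with at least 20 counts, within 0.0978 on the log2 scale.

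The alternatives were median-of-ratios scaling, no filter on low values, a stricter one (at least 1 FPKM in all 3 libraries of a group and a mean count of 20), limma 3.58.1 on log2(FPKM + 1) and log2(FPKM + 0.1), the spread of only the groups compared, DESeq2 1.42.0, a replicate block and each library left out in turn. Those that left out 2 libraries together were added after seeing the data. The median of all loci moved by up to 0.27 on the log2 scale with limma on log2(FPKM + 0.1) and 0.20 with limma on log2(FPKM + 1).

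The members and the 9 pathway and 4 marker lists, taken by product description, were chosen with earlier results of these data known. Descriptions off the subject were then removed from the lists after the descriptions had been read. All members are named. In each pathway list the rule took the 2 loci with the highest mean FPKM and the 2 with the largest called change in CA vs. NA. Their values in the other comparisons are given for some of them only, chosen after they were seen. For members with a mean of at least 10 FPKM it took the 3 loci with the most similar pattern.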

Additional observations from a re-analysis of the deposited data

Results flagged for a closer look

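The response of CSS004818, a theobromine synthase locus, differed between the cultivars in the test of one response against the other. For CA vs. NA the difference of SCZ from YH9 was −3.01 on the log2 scale (adjusted p = 0.0173 in edgeR, lost in 2 of 28 alternatives). For DA vs. CA it was 2.60 (adjusted p = 0.039 in edgeR) and less stable, lost in 14 of 28. All 3 SCZ_CA libraries, at 0.684 to 2.62 FPKM, lay below all 3 SCZ_NA libraries, at 4.60 to 15.0 FPKM, while the YH9 groups overlapped. CSS051700, a lysine histidine transporter, differed by −6.50 for CA vs. NA (adjusted p = 0.00719 in edgeR), a call kept in all 28 alternatives. CSS008524, described as a pyridoxal 5'-phosphate synthase subunit, differed by 6.97 for DA vs. CA (adjusted p = 0.0222, lost in 8 of 27 alternatives), at 1.46 FPKM or less on average, with 0 counts in all YH9_NA and YH9_DA libraries, so that this value depends on the prior count of the fit and is no bound. Groups of 3 libraries were not tested for single outlying samples.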

How the results depend on the processing

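No estimate of a member changed sign together with a call in any alternative. In SCZ_CA vs. SCZ_NA, 1 of 8 members was called, against 2, with limma at either pseudocount, the spread of only the groups compared, the replicate block, and without the first library of both YH9_CA and YH9_DA. In SCZ_DA vs. SCZ_CA, 1 was called, against 3, with limma at either pseudocount and the spread of only the groups compared. In SCZ_DA vs. SCZ_NA, 1 was called, against 0, with DESeq2 and without SCZ_NA replicate 1 and YH9_NA replicate 2 together. For the difference between the cultivars in CA vs. NA, 0 were called, against 1, with the spread of only the groups compared and without the first library of both YH9_CA and YH9_DA, and 2 with DESeq2. For DA vs. CA the same 3 settings gave 0, 0 and 2, and the replicate block gave 0. Leaving out 1 library at a time gave 1 to 3 calls in SCZ_CA vs. SCZ_NA and in SCZ_DA vs. SCZ_CA, and 0 to 1 in YH9_DA vs. YH9_CA, SCZ_DA vs. SCZ_NA and the difference in DA vs. CA. Between the cultivars it gave 4 to 5 at NA, 5 to 8 at CA and 4 to 7 at DA. Each of these cultivar counts holds the 3 loci that met the level limit only through YH9, which had to be lower in SCZ and are no test. The settings that left out 2 libraries were chosen after seeing the data, and the cause of these changes was not tested. Same-numbered libraries had correlations of −0.20 to 0.38 in their deviations from group means, and in 0 of 9 comparisons were all pairs over 0.1, so the numbers were not taken as pairing. Loci near 0 in SCZ are limited by counting.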

Other observations

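CSS040435 stood more than 3-fold above all other YH9 libraries in the first library of both YH9_CA (36.9 FPKM) and YH9_DA (31.7 FPKM), where the other 7 lay between 3.66 and 7.33 FPKM. Of 29019 tested loci, 5 (0.0172%) showed this pattern for the libraries numbered 1, and 0 for those numbered 2 or 3. The pattern was searched for after the values of CSS040435 had been seen.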
